A study of Rattus norvegicus with 15 samples.

Results

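Collagens are the main structural proteins of the extracellular matrix. Each collagen molecule is built from alpha chains that wind around each other in a helix made of repeated glycine-X-Y units, and each chain is the product of its own gene. Fibrillar collagens (types I, II, III, V, XI and others) assemble into the fibres that give the heart wall its tensile strength and are made in the heart mainly by fibroblasts. Basement membrane collagens (type IV, with types XV and XVIII in the basement membrane zone) form the sheet around cardiomyocytes and capillaries. The other classes decorate or anchor fibrils, form beaded filaments or span the cell membrane.

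The genes described here are all rows of the expression table whose platform gene symbol is Col, a number, the letter a and a number. The rule found 20 collagen chain genes among 23188 probe sets, each with 1 probe set. Of these, 8 encode fibrillar chains, 4 basement membrane chains and 8 chains of other classes. The 24 further collagen genes that RefSeq lists for the rat were not analysed here.

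RNA was measured in hearts of male Sprague-Dawley (SD) rats aged 8 to 10 weeks, on arrays that read 1 transcript cluster per probe set. In the treated rats severe acute pancreatitis (SAP) was induced by retrograde infusion of 5% sodium taurocholate, a bile salt, into the pancreatic and biliary ducts, and hearts were taken after 12 h or 24 h. Control rats had sham surgery. There were 15 arrays, 5 from each of the 3 groups. The labels name neither the part of the heart that was taken nor the hour at which sham hearts were taken. Levels are the authors' normalized values, taken to be on the log2 scale, where a difference of 1 is a 2-fold difference. Array medians lay between 5.90 and 5.98.

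The arrays differed in their levels of atrial muscle transcripts, and the collagen values are read with this in view. Averaged over 6 atrial markers (Bmp10, Myl4, Myl7, Nppa, Sln, Stard10), the level ran from 8.20 to 15.08 log2 in the sham arrays, from 6.82 to 17.00 at 12 h and from 6.79 to 7.66 at 24 h. In 4 arrays, sham replicates 2 and 3 and SAP 12 h replicates 3 and 4, Myl4 and Sln both exceeded 12 log2, and no 24 h array was of this kind. Results are therefore also given without these 4 arrays, which leaves 3 sham and 3 SAP 12 h arrays beside the 5 SAP 24 h arrays. The remaining arrays still differed in atrial transcripts. Among them Sln differed from sham by -2.99 log2 at 12 h (limma adjusted p = 0.0042) and -2.66 at 24 h (0.0048), and Myl7 by -6.04 at 24 h (0.0192). The 7 measured fibroblast markers, listed further on, had mean levels of 11.32 to 12.38 in sham hearts, 10.87 to 12.73 at 12 h and 10.99 to 11.35 at 24 h. In RNA from whole tissue, fewer cells of a type and less RNA per cell cannot be told apart.

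Of the 20 genes, 15 have a promoter in the RefSeq table of the GRCr8 assembly, among them 2 of the 3 genes that the comparisons below call. The 2 stretches shown here are those of Col1a2, which was lower at 24 h, and of Col4a1, which was lower at 12 h. Capitals mark matches on either strand to 3 short motifs. These are the letters CCAAT of the box of that name, the letters TATAAA of the core promoter box bound by the general transcription machinery, and the letters GGGCGG of the box bound by Sp1 and related factors. The Col1a2 stretch, chr4:33518307-33518406 on the plus strand, is the first 100 of the 250 bases before the annotated start. The Col4a1 stretch, chr16:84885521-84885596 on the plus strand, is the whole interval of 76 bases between the annotated starts of Col4a1 and Col4a2, which lie head to head and are read in opposite directions.
Col1a2: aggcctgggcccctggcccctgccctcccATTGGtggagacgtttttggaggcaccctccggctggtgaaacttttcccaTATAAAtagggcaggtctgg
Col4a1 to Col4a2: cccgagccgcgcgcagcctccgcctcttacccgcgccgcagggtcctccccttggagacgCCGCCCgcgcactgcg

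The Col1a2 stretch held CCAAT on the opposite strand and TATAAA on the gene's own strand, starting 221 and 170 bases before the annotated start. The interval between Col4a1 and Col4a2 held GGGCGG on the opposite strand and was richer in G and C (78.9%) than the Col1a2 stretch (60%). Over windows of 300 bases (250 before and 50 after the start) CCAAT occurred in 4 of 15 collagen promoters and in 37.5% of all 33469 promoters. TATAAA occurred in 2 of 15 and in 14.2% of all, and GGGCGG in 8 of 15 and in 33.1% of all. These matches describe letters and no binding.

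The first comparison asked how collagen RNA differed from sham hearts 12 h after SAP was induced. Limma called 2 of the 20 genes, both lower and none higher, at an adjusted p under 0.05 over all probe sets, against 4.92% of all probe sets called in either direction and 2.57% called lower. These were Col14a1, a fibril-associated chain, which fell 3.13-fold, and Col4a1, the main type IV chain of capillary and muscle basement membranes, which fell 1.56-fold. Without the 4 atrium-rich arrays 4 genes were called lower, Col14a1, Col1a2, Col3a1 and Col15a1, against 1.47% of all probe sets, and Col4a1 was no longer among them. With the atrial marker mean as a covariate all 5 of these genes were called lower, against 2.77% of all probe sets. Over all 20 genes the median log2 difference was -0.11, beside 0.01 over all probe sets, with 14 of 20 negative. Without the 4 arrays it was -0.03, with 11 of 20 negative. The 10 collagens with a mean of at least 6 log2 had a median of -0.69, beside 0.02 over all probe sets of that signal.

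The second comparison asked the same for 24 h. Limma again called 2 of the 20 genes, both lower, against 3.37% of all probe sets in either direction and 2.14% lower. These were Col14a1, which fell 2.71-fold, and Col1a2, the alpha 2 chain of type I collagen, which fell 2.15-fold. The same 2 genes were called without the 4 atrium-rich arrays, against 1.53% of all probe sets called lower. With the atrial covariate none was called, against 1.41% called lower. The atrial marker means of the 24 h arrays (6.79 to 7.66) and of the sham arrays (8.20 to 15.08) did not overlap. In the covariate fits at 24 h, atrial content and SAP therefore cannot be fully told apart. The median over the 20 genes was -0.14 log2, beside 0.02 over all probe sets, with 12 of 20 negative, and that of the 10 with a mean of at least 6 log2 was -0.67, beside -0.02 over all probe sets of that signal. Without the 4 arrays the median over the 20 genes was -0.08, with 11 negative, and with the atrial covariate that of the 10 brighter genes was -0.37. The arrays of the groups did not overlap for 5 genes, Col1a2, Col3a1, Col14a1, Col15a1 and Col6a2, all lower at 24 h, against 3.37% of all probe sets that were lower without overlap. Leaving out single arrays often ended the calls at 24 h. No collagen gene was called in 8 of 15 such fits, namely those without sham replicate 2, 3 or 5 or without any one of the 24 h arrays.

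**Figure D1:**
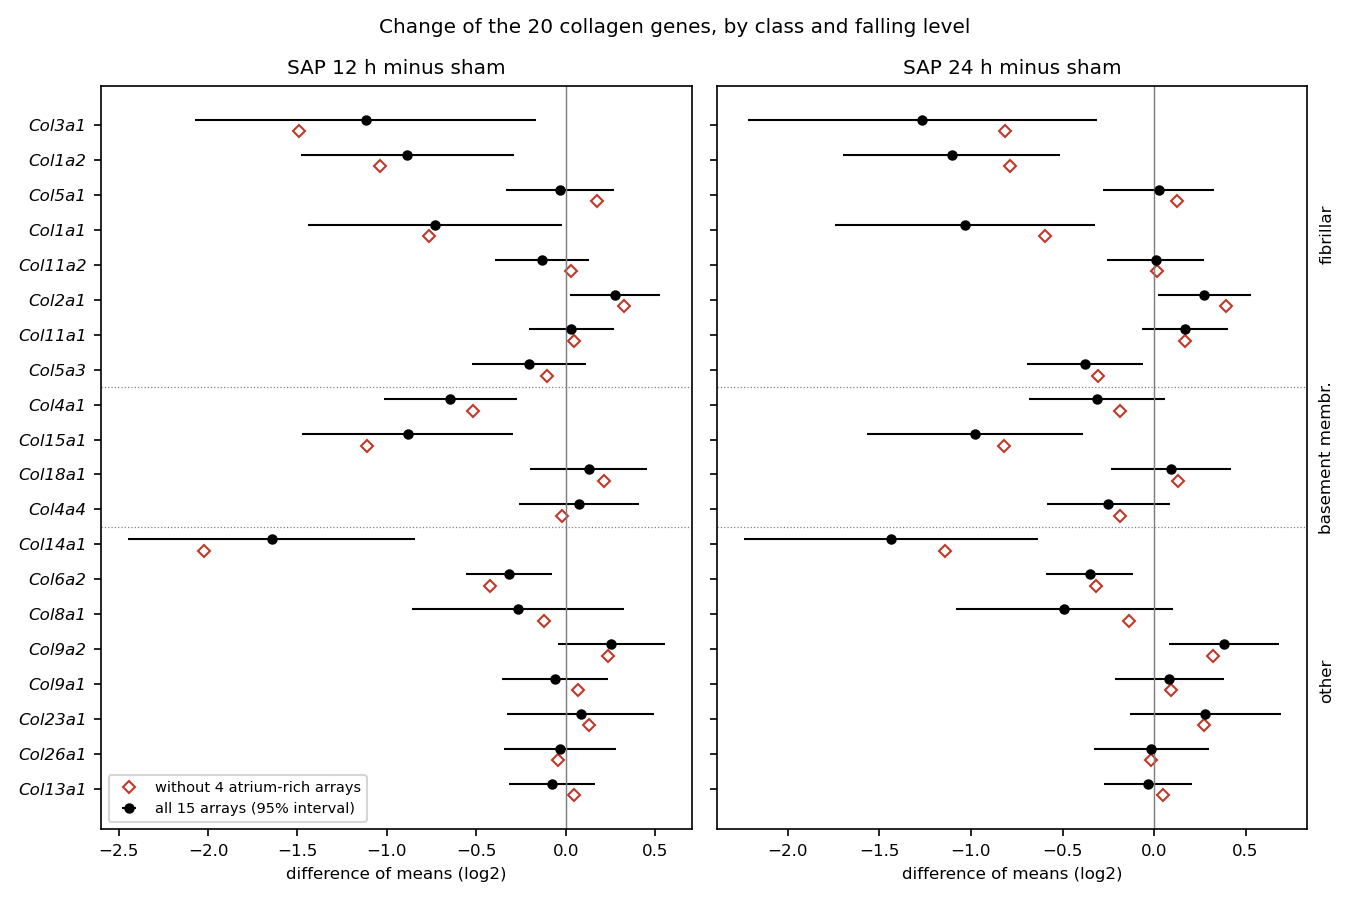
Difference of each SAP group from sham (x axis, log2) for the 20 collagen genes (y axis, by class and mean signal); black points with 95% intervals are limma's fit to all 15 arrays and open red diamonds the fit without the 4 atrium-rich arrays. Col3a1, Col1a2, Col1a1, Col15a1 and Col14a1 lie left of 0 with both sets of arrays at both times, while Col5a1 lies within 0.2 of 0.

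Among fibrillar chains, type I and type III carried the large differences. Type I collagen is the stiff main fibre of the heart and is assembled from the products of Col1a1 and Col1a2. Col1a2 stood at 11.64, 12.38, 12.69, 11.65 and 11.94 log2 in sham replicates 1 to 5. At 12 h the values were 10.66, 10.32, 12.28, 11.48 and 11.13, and at 24 h 11.13, 10.72, 11.0, 10.83 and 11.09. The 12 h arrays were spread widely, with the atrium-rich replicate 3 inside the sham range, whereas all 24 h arrays lay below all sham arrays. At 24 h the difference was -1.11 ± 0.28 (SE) log2 (limma adjusted p = 0.0379), from 12.06 ± 0.46 (SD, n = 5) in sham to 10.95 ± 0.17. At 12 h it was -0.89 ± 0.28 (adjusted p = 0.0863), and without the 4 atrium-rich arrays -1.04 ± 0.20 (adjusted p = 0.0120). With the atrial marker mean as a covariate the 12 h value was -0.90 (adjusted p = 0.0065), but the 24 h value was -0.63 and no longer called (adjusted p = 0.149).

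Col1a1, the alpha 1 chain of type I collagen, read 8.97, 9.59, 10.95, 8.96 and 9.60 in sham replicates 1 to 5. The 12 h arrays read 8.20, 8.39, 9.64, 9.54 and 8.64, and the 24 h arrays 8.23, 8.70, 8.38, 8.50 and 9.10. Sham replicate 3 stood well above the other sham arrays, and the groups overlapped at both times. The difference from sham was -0.73 ± 0.34 (SE) at 12 h (limma adjusted p = 0.293) and -1.03 ± 0.34 at 24 h (adjusted p = 0.106). It was not called at either time, and without sham replicate 3 the values were -0.40 and -0.70. The 24 h value was -0.59 without the 4 arrays and -0.52 with the atrial covariate.

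Type III collagen, a homotrimer of the Col3a1 product, forms thinner and more compliant fibres beside type I. Col3a1 stood at 12.23, 13.19, 14.03, 12.17 and 13.06 in sham hearts. At 12 h it stood at 10.58, 10.42, 13.10, 13.00 and 11.99, and at 24 h at 11.79, 11.54, 11.90, 11.50 and 11.62. The 2 atrium-rich 12 h arrays lay within the sham range and the other 3 below every sham array, while the 24 h arrays lay close together below the sham arrays. The difference was -1.12 ± 0.45 (SE) at 12 h (limma adjusted p = 0.210) and -1.27 ± 0.45 at 24 h (adjusted p = 0.145), neither called with all arrays. Over the 11 other arrays the 12 h value was -1.49 ± 0.34 (adjusted p = 0.0300) and the 24 h value -0.82 ± 0.30 (adjusted p = 0.202). With the atrial covariate Col3a1 differed by -0.50 at 24 h (adjusted p = 0.578).

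Col5a1, which encodes a chain of type V collagen, gave another picture. Type V collagen helps to start fibrils and sets their diameter. Col5a1 read 8.87, 9.39, 9.24, 9.16 and 9.19 in sham hearts. It read 9.47, 8.99, 8.88, 9.07 and 9.28 at 12 h and 9.25, 8.85, 9.33, 9.49 and 9.06 at 24 h. The groups overlapped at both times. The difference was -0.03 at 12 h (95% interval -0.34 to 0.27) and 0.03 at 24 h (-0.28 to 0.33), so a shift of the size seen for Col1a2 at 24 h lies outside the interval. The sign of the Col5a1 difference at both times turned with the set of arrays used.

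The level of each type I or III chain minus that of Col5a1 in the same array is given as a description with no test, since Col5a1 was chosen for lying near 0. Against sham hearts Col1a2 minus Col5a1 shifted by -0.85 log2 at 12 h and -1.13 at 24 h. Col3a1 minus Col5a1 shifted by -1.09 and -1.29, and Col1a1 minus Col5a1 by -0.70 and -1.06. Over the arrays that were not atrium-rich the shifts at 12 h and 24 h were -1.21 and -0.91 for Col1a2, -1.66 and -0.94 for Col3a1, and -0.94 and -0.72 for Col1a1. Omitting single arrays moved the 12 h shift of Col1a1 to as little as -0.38 and that of Col3a1 to -0.69.

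The other fibrillar genes were Col2a1, Col11a1 and Col11a2, which are best known from cartilage, and Col5a3, a further type V chain. None was called in any comparison. Their differences from sham ran from -0.21 (Col5a3) to 0.27 (Col2a1) at 12 h and from -0.38 (Col5a3) to 0.27 (Col2a1) at 24 h. The Col5a3 difference at 24 h had an unadjusted limma p of 0.0230 and an adjusted p of 0.202. It was -0.31 without the 4 arrays and -0.39 with the atrial covariate, so Col5a1 does not stand for all type V chains. Col2a1 was higher in both SAP groups by the same 0.27 log2, with an unadjusted p of 0.0357 and an adjusted p of 0.260 at 12 h and 0.256 at 24 h. The 4 measured cartilage markers had a mean of 3.76 to 4.20 in all arrays, under the median of 4.64 of 8 pancreatic acinar genes. That median is only a rough guide to background, since of the 8 genes Amy2a3 averaged 7.04 log2 in sham hearts and Ctrb1 was called higher at 24 h (0.77, limma adjusted p = 0.0253). For the fibrillar class as a whole 4 of 8 differed from sham at an unadjusted p under 0.05 at 12 h and 5 of 8 at 24 h, where 16% and 16.4% of all probe sets did. The class median was -0.17 log2 at 12 h, with 6 of 8 negative, and -0.18 at 24 h, with 4 of 8 negative. Without the 4 arrays it was -0.04 at 12 h and -0.145 at 24 h, with 4 of 8 negative at each time.

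**Figure D2:**
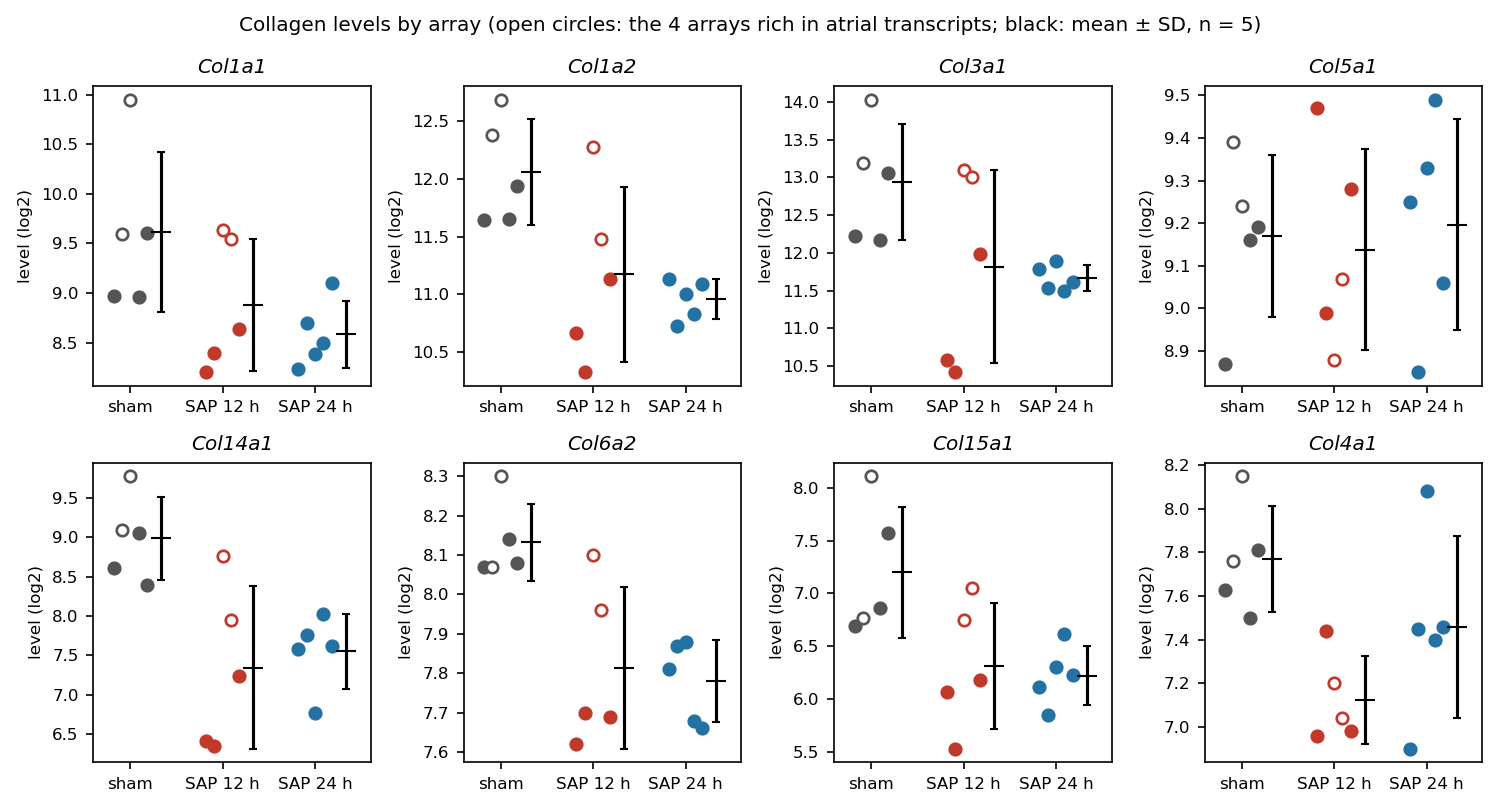
Level (y axis, log2) of 8 collagen genes in each of the 5 arrays of the 3 groups (x axis); open circles are the 4 atrium-rich arrays and black bars the mean ± SD. At 24 h the points for Col1a2, Col3a1, Col14a1, Col6a2 and Col15a1 lie below every sham array, and at 12 h the open circles lie above every filled one for Col1a1, Col1a2, Col3a1, Col14a1, Col6a2 and Col15a1.

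In the basement membrane class Col4a1 fell at 12 h, and no other difference from sham was called with all arrays. Col4a1, whose promoter is printed above, stood at 7.63, 7.76, 8.15, 7.50 and 7.81 in sham hearts. It stood at 6.96, 7.44, 7.20, 7.04 and 6.98 at 12 h and at 6.90, 7.45, 8.08, 7.40 and 7.46 at 24 h. All 12 h arrays lay below all sham arrays, as for 2.44% of all probe sets, while the 24 h arrays overlapped the sham range. The 12 h difference was -0.65 ± 0.18 (SE) (limma adjusted p = 0.0424), and leaving out single arrays ended the call in 11 of 15 fits (highest adjusted p 0.114, sham replicate 3 omitted). Without the 4 atrium-rich arrays it was -0.52 ± 0.24 (adjusted p = 0.358), and with the atrial covariate -0.65 (adjusted p = 0.0416). At 24 h the difference was -0.31 ± 0.18 (adjusted p = 0.411), or -0.19 without the 4 arrays and -0.17 with SAP 24 h replicate 1 omitted. The test of 24 h against 12 h gave 0.33 ± 0.18 (adjusted p = 0.441), or 0.18 with SAP 24 h replicate 3 omitted.

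Col15a1 encodes a chain that links basement membranes to the fibres beside them and whose loss in mice weakens skeletal muscle and capillaries. It read 6.69, 6.77, 8.11, 6.86 and 7.57 in sham hearts. It read 6.07, 5.53, 6.75, 7.05 and 6.18 at 12 h and 6.11, 5.85, 6.30, 6.62 and 6.23 at 24 h. The 24 h arrays lay below all sham arrays, and at 12 h only the 2 atrium-rich arrays reached the sham range. The difference was -0.88 ± 0.28 (SE) at 12 h (limma adjusted p = 0.0856) and -0.98 ± 0.28 at 24 h (adjusted p = 0.0643), neither called. Without the 4 atrium-rich arrays the 12 h value was -1.11 ± 0.25 (adjusted p = 0.0276) and the 24 h value -0.82 ± 0.22 (adjusted p = 0.0767). With the atrial covariate they were -0.90 (adjusted p = 0.0404) and -0.66 (adjusted p = 0.280).

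Col18a1, whose product is cleaved to the fragment endostatin, stood at 5.26, 5.46, 5.77, 5.49 and 5.82 in sham hearts. The 12 h values were 5.56, 5.45, 5.58, 5.66 and 6.19 and the 24 h values 5.44, 6.00, 5.53, 5.77 and 5.52. The groups overlapped, with differences of 0.13 (95% interval -0.20 to 0.45) and 0.09 (-0.23 to 0.42). Col4a4, a type IV chain best known from kidney and inner ear, differed by 0.07 at 12 h and -0.25 at 24 h (adjusted p = 0.902 and 0.479). The class medians of the 4 genes were -0.29 log2 at 12 h and -0.28 at 24 h, the latter -0.19 without the 4 arrays.

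Among the other classes Col14a1 stood apart. Type XIV collagen belongs to the fibril-associated collagens with interrupted helices, which sit on the surface of type I fibrils and regulate their growth. Col14a1 stood at 8.61, 9.09, 9.78, 9.06 and 8.40 in sham replicates 1 to 5. At 12 h it stood at 6.41, 6.35, 8.77, 7.95 and 7.24, and at 24 h at 7.58, 7.76, 6.76, 8.03 and 7.62. Every 24 h array lay below every sham array, while at 12 h the atrium-rich replicate 3 alone reached into the sham range. The 12 h difference was -1.64 ± 0.38 (SE) (limma adjusted p = 0.0156), from 8.99 ± 0.53 (SD, n = 5) to 7.34 ± 1.03. It stayed called whichever single array was omitted (15 fits, highest adjusted p 0.0493, sham replicate 3 omitted). It was -2.02 ± 0.30 without the 4 atrium-rich arrays (adjusted p = 0.0031) and -1.67 with the atrial covariate (adjusted p = 0.0012). At 24 h the difference was -1.44 ± 0.38 (adjusted p = 0.0452). Omitting single arrays ended that call in 11 of 15 fits (highest adjusted p 0.121, sham replicate 3 omitted). The 24 h value was -1.14 ± 0.27 without the 4 arrays (adjusted p = 0.0422) and -0.84 with the atrial covariate (adjusted p = 0.199).

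Col6a2 encodes a chain of type VI collagen, the beaded filament that ties cells to the fibrillar matrix. It read 8.07, 8.07, 8.30, 8.14 and 8.08 in sham hearts. It read 7.62, 7.70, 8.10, 7.96 and 7.69 at 12 h and 7.81, 7.87, 7.88, 7.68 and 7.66 at 24 h. The differences were small but the arrays of a group lay close together, and the 24 h arrays did not reach the sham range. The difference was -0.32 ± 0.11 (SE) at 12 h (limma adjusted p = 0.138) and -0.35 ± 0.11 at 24 h (adjusted p = 0.0999), neither called. Without the 4 atrium-rich arrays the values were -0.43 (adjusted p = 0.121) and -0.32 (adjusted p = 0.206). With the atrial covariate they were -0.32 (adjusted p = 0.0903) and -0.24 (adjusted p = 0.389).

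Col8a1, a short-chain collagen of vessel walls and subendothelial matrix, stood at 5.65, 5.81, 7.28, 5.51 and 5.84 in sham hearts. The 12 h values were 5.41, 5.42, 5.95, 6.17 and 5.80 and the 24 h values 4.89, 5.72, 5.47, 6.11 and 5.45. Sham replicate 3 stood above all other arrays, and the groups overlapped. The differences were -0.27 and -0.49 (limma adjusted p = 0.745 and 0.418), and without sham replicate 3 they were 0.05 and -0.17. Over the arrays that were not atrium-rich they were -0.12 and -0.14.

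The remaining genes of these classes were the fibril-associated Col9a1 and Col9a2, the transmembrane Col13a1 and Col23a1, and Col26a1. None was called. Their differences ran from -0.08 (Col13a1) to 0.25 (Col9a2) at 12 h and from -0.03 (Col13a1) to 0.38 (Col9a2) at 24 h. Col9a2, like Col2a1 a cartilage collagen, had the highest value of the 20 genes at 24 h, with an unadjusted p of 0.0150 and an adjusted p of 0.163. Col13a1 and Col26a1 had means of 3.44 and 4.34, under the acinar median of 4.64. The median of the 8 genes of the other classes was -0.07 log2 at 12 h, with 6 of 8 negative. At 24 h it was -0.02, with 5 of 8 negative. Without the 4 arrays these medians were 0.002 and 0.014, each with 4 of 8 negative. Over all 20 genes, 10 had a mean under 6 log2, and the differences of those 10 from sham ran from -0.27 to 0.25 at 12 h and from -0.49 to 0.38 at 24 h.

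**Figure D3:**
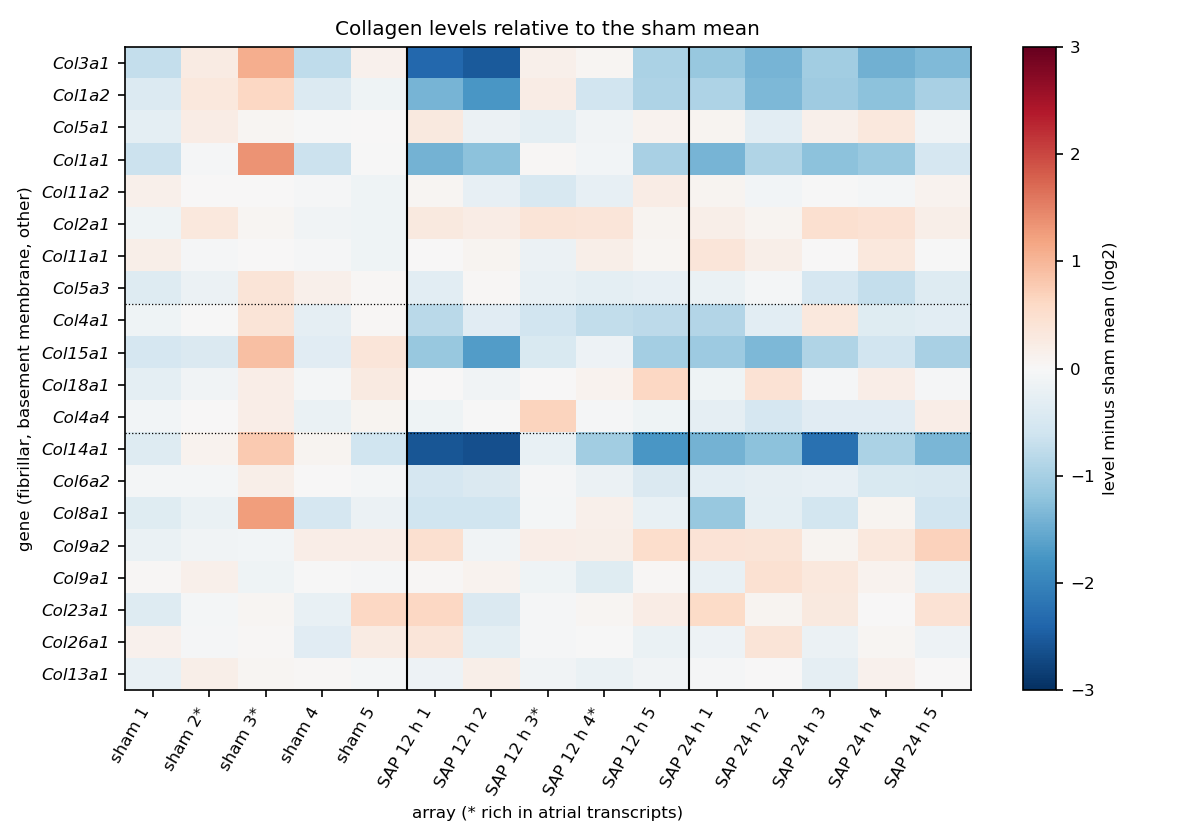
Level of the 20 collagen genes (rows, by class) in each of the 15 arrays (columns; an asterisk marks the atrium-rich arrays), as the difference from the sham mean on the log2 scale (colour). Blue fields at 12 h are deepest in replicates 1 and 2 for Col3a1 and Col14a1. In replicates 3 and 4 Col14a1 is paler blue, while Col3a1 lies slightly above the sham mean. Among sham arrays replicate 3 is the reddest for Col3a1, Col1a1, Col15a1, Col14a1 and Col8a1.

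The same few arrays were high across genes. Sham replicate 3 held the highest sham value for 10 of the 20 genes, including Col1a1, Col1a2, Col3a1, Col4a1, Col14a1, Col15a1 and Col6a2. At 12 h replicate 3 held the highest value for 7 of the 20, among them Col1a1, Col1a2, Col3a1, Col14a1 and Col6a2. Both were among the atrium-rich arrays, with atrial means of 12.63 and 17.00 log2. Sham replicate 2 (atrial mean 15.08) and SAP 12 h replicate 4 (16.08), also atrium-rich, held the highest value of their group for 4 and 3 of the 20. The same counts over all probe sets were not made. Sham replicate 3 also had a fibroblast marker mean of 12.38 and an adipocyte marker mean (3 genes) of 6.93, and SAP 12 h replicate 3 of 12.73 and 6.92, each the highest of its group. The part of atrial, fibroblast and fat tissue in the collagen values was not tested beyond the fits without the 4 arrays and with the atrial covariate.

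Among the 3 sham and 3 SAP 12 h arrays that were not atrium-rich, the groups did not overlap for 7 genes that were lower (Col1a1, Col1a2, Col3a1, Col4a1, Col15a1, Col14a1 and Col6a2) and for 1 that was higher (Col2a1). Of all probe sets 8.77% were lower and 8.14% higher without overlap in the same arrays. At 24 h, against the same 3 sham arrays, the same held for 5 lower genes (Col1a2, Col3a1, Col14a1, Col15a1 and Col6a2) and again for Col2a1 as higher, beside 6.4% and 5.05% of all probe sets. The comparisons at 12 h and 24 h share their sham arrays.

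**Figure D4:**
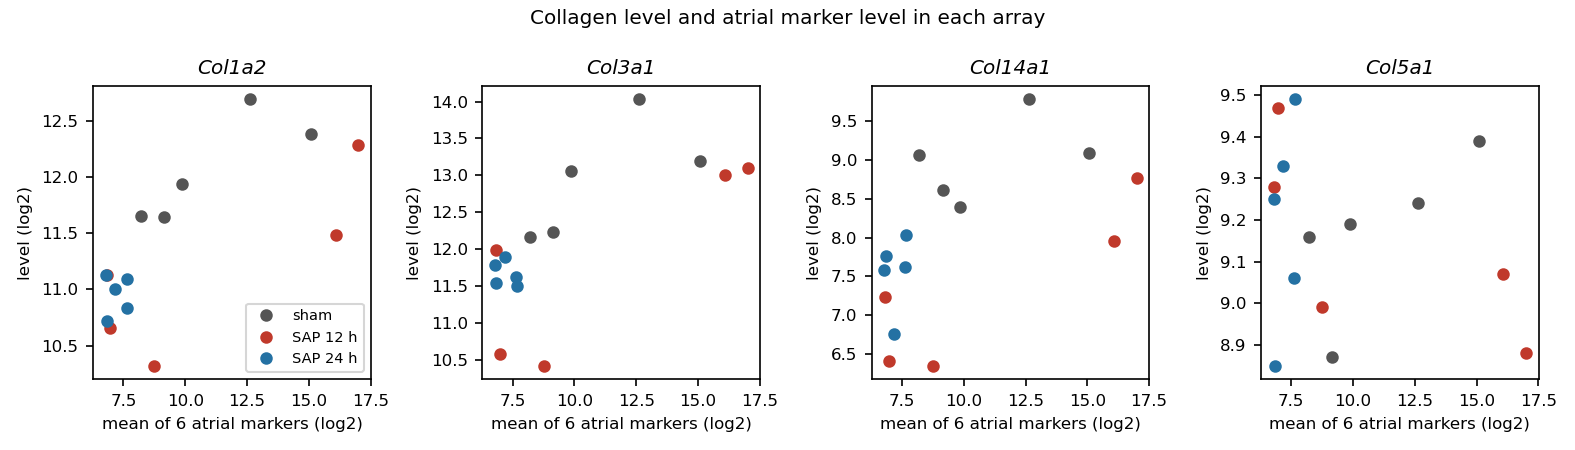
Level of Col1a2, Col3a1, Col14a1 and Col5a1 (y axis, log2) against the mean of 6 atrial markers (x axis, log2) in the 15 arrays, coloured by group. The 24 h arrays sit between 6.79 and 7.66 on the x axis, and the 2 atrium-rich 12 h arrays, at 16.08 and 17.00, have more Col3a1 and Col14a1 than the other 12 h arrays, whereas their Col5a1 levels, 8.88 and 9.07, are not the highest.

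The third comparison set 24 h against 12 h. Limma called none of the 20 genes, and none had an unadjusted p under 0.05, where 0.69% of all probe sets were called and 13.2% had such a p. The median was 0.01 log2, beside 0.02 over all probe sets. The differences ran from -0.32 (Col4a4) to 0.33 (Col4a1). For Col14a1 the value was 0.21 ± 0.38 (SE), and for Col1a2 -0.22 ± 0.28. The interval for Col3a1, -1.10 to 0.81, leaves room for a 2-fold difference, so the level at 24 h cannot be called the same as at 12 h. When the 4 atrium-rich arrays were set aside, 2 of the 20 genes had an unadjusted p under 0.05, as did 2297 of 23188 probe sets. In that fit none of the 20 was called, against 0.367% of all probe sets. There Col14a1 was 0.88 ± 0.27 and Col3a1 0.67 ± 0.30 higher at 24 h than at 12 h (adjusted p = 0.235 and 0.481), and the values of Col1a1, Col1a2, Col3a1, Col15a1 and Col6a2 were positive where they had been negative with all arrays.

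The machinery that makes, cross-links and binds collagen was read from 5 lists. Of 23 measured genes of folding and processing, 2 rose and none fell at 12 h, and none rose and 2 fell at 24 h, where 4.92% and 3.37% of all probe sets were called. P4ha1, a catalytic subunit of the prolyl 4-hydroxylase that stabilizes the helix, read 10.84, 10.73, 10.98, 10.63 and 10.93 in sham hearts. It read 11.22, 11.39, 12.11, 11.47 and 11.42 at 12 h and 10.38, 10.57, 11.05, 10.54 and 10.88 at 24 h. All 12 h arrays were above all arrays of the other groups. It rose by 0.70 ± 0.16 (SE) log2 at 12 h (limma adjusted p = 0.0148) and the difference of 24 h from 12 h was -0.84 (adjusted p = 0.0177). Over the arrays that were not atrium-rich these were 0.54 (adjusted p = 0.152) and -0.66 (adjusted p = 0.117). Omitting single arrays ended the call against 12 h in 3 of 15 fits (highest adjusted p 0.0634, SAP 24 h replicate 1 omitted).

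Tmem38b, an endoplasmic reticulum cation channel whose loss in humans impairs collagen processing in bone, rose at 12 h by 0.72 ± 0.16 log2 (limma adjusted p = 0.0118). It read 8.34, 8.47, 7.79, 8.11 and 7.97 in sham and 8.89, 9.03, 8.60, 8.66 and 9.09 at 12 h, without overlap, and stayed called without the 4 atrium-rich arrays (0.86, adjusted p = 0.0233). At 24 h it stood at 8.07, 8.57, 8.86, 8.64 and 8.53, which overlapped the sham arrays (0.40, adjusted p = 0.200).

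Pcolce, which speeds the cleavage of procollagen C-propeptides, fell at 24 h by 0.62 ± 0.15 log2 (limma adjusted p = 0.0328). It moved from 6.43, 6.46, 6.82, 6.62 and 7.03 in sham to 6.36, 5.98, 6.10, 5.65 and 6.16, with no overlap. P3h4, a partner of collagen lysine hydroxylation in mice, fell at 24 h by 0.57 ± 0.15 (adjusted p = 0.0396). Both calls were lost without the 4 atrium-rich arrays (-0.64 and -0.59, adjusted p = 0.0758 and 0.0944). Omitting single arrays ended them in 7 and 9 of 15 fits (highest adjusted p 0.0937, sham replicate 5 omitted, and 0.111, SAP 24 h replicate 5 omitted). The chaperone Serpinh1, which binds the procollagen helix, differed from sham by 0.51 at 12 h and -0.26 at 24 h (adjusted p = 0.308 and 0.652), the 12 h value being 0.29 without the 4 arrays. The lysyl hydroxylase Plod2 differed by 0.11 and -0.59 (adjusted p = 0.850 and 0.0662), the 24 h value being -0.33 with the atrial covariate.

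None of the 8 measured genes of cross-linking and fibril partners was called in any comparison with all arrays or without the 4 atrium-rich ones. The median of this list was -0.33 log2 at 12 h and -0.55 at 24 h, or -0.275 and -0.280 without the 4 arrays. Periostin (Postn), a matricellular protein of activated fibroblasts, differed from sham by -2.45 log2 at 24 h (adjusted p = 0.0581), and by -1.45 without the 4 atrium-rich arrays. With the atrial covariate the Postn difference was -1.37 (limma adjusted p = 0.255). Its 24 h arrays (3.58 to 4.27 log2) overlapped the sham arrays (4.07 to 8.46). All 24 h values lay under the acinar median of 4.64, so the size of the Postn difference is uncertain. Fibromodulin (Fmod), which binds fibrillar collagens, differed by -1.34 at 12 h and -1.35 at 24 h (adjusted p = 0.0959 and 0.101), the 24 h value being -0.61 without the 4 arrays. With the atrial covariate Fmod was called lower at 12 h (-1.37, adjusted p = 0.0270). Sparc, a collagen-binding glycoprotein, differed by 0.06 and 0.39 (adjusted p = 0.866 and 0.0623), the opposite sign to the type I and III chains at 24 h, and with the atrial covariate it was called higher at 24 h (0.48, adjusted p = 0.0435).

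Of 6 laminins, nidogens and other basement membrane partners and of 7 collagen receptors none was called in any of the 3 fits (all arrays, without the 4, atrial covariate). Nid2, which joins laminin to type IV collagen, differed by -0.70 at 12 h (limma adjusted p = 0.0743), or -0.34 without the 4 arrays. Ddr2, the fibroblast receptor for fibrillar collagen, differed by -0.20 and -0.37 (adjusted p = 0.827 and 0.565), the 12 h value being -0.55 without the 4 arrays. In the list of TGF-beta and fibroblast activation genes 1 of 13 was called, at 24 h, where 3.37% of all probe sets were called and 2.14% lower. Tgfb3, a ligand that drives collagen synthesis in fibroblasts, fell at 24 h by 1.18 ± 0.32 log2 (adjusted p = 0.0483), from 7.99, 8.52, 8.90, 7.97 and 8.00 in sham to 6.98, 7.12, 6.62, 7.06 and 7.71. The groups did not overlap, and the difference was -0.89 without the 4 atrium-rich arrays (adjusted p = 0.0312). Omitting single arrays ended the call in 11 of 15 fits (highest adjusted p 0.128, sham replicate 3 omitted), and with the atrial covariate the value was -0.62 (adjusted p = 0.184). Tgfb1 differed by -0.11 and 0.03 and the myofibroblast actin Acta2 by 0.15 and -0.66, none called.

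Of the 7 measured fibroblast markers, 4 had negative differences from sham at 12 h and 6 at 24 h, with list medians of -0.34 and -0.58 log2. None was called at 24 h. There Lum, a proteoglycan of collagen fibrils, differed by -1.74, Mfap5 by -1.59, Gsn by -0.86 and Pdgfra by -0.58. Tcf21 differed by -0.10, Pdgfrl by -0.09 and Dcn by 0.06. For Gsn the 24 h arrays lay below all sham arrays, as for 3.37% of all probe sets. The values of Lum, Mfap5 and Pdgfra at 24 h were -1.11, -0.93 and -0.28 without the 4 atrium-rich arrays. At 12 h the Tcf21 and Dcn arrays lay above all sham arrays, as for 542 of 23188 probe sets. Dcn differed by 0.40 there (limma adjusted p = 0.0887), or 0.21 without the 4 arrays. Of the 7 markers 1 was called at 12 h, where 4.92% of all probe sets were. This was Tcf21, a transcription factor of cardiac fibroblasts, which rose by 0.86 ± 0.19 log2 (limma adjusted p = 0.0133) and differed by 0.50 without the 4 arrays (adjusted p = 0.372). It was lower at 24 h than at 12 h (-0.96, adjusted p = 0.0263), a call that omitting single arrays ended in 5 of 15 fits (highest adjusted p 0.0743, SAP 24 h replicate 2 omitted) and that was lost without the 4 arrays (adjusted p = 0.181). The part of fibroblast content in the collagen values was not tested.

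Other cell markers were read against the same shares of probe sets called, 4.92% at 12 h and 3.37% at 24 h. Of 7 endothelial markers 1, Emcn, was called higher at 12 h (0.42 log2, adjusted p = 0.0354) and none at 24 h, and the call was lost without the 4 atrium-rich arrays (adjusted p = 0.0568). Of 8 macrophage markers 3 were called higher at 12 h and none at 24 h, and 1 at 12 h without the 4 arrays. Of 6 neutrophil markers 3 were called higher at 12 h, with all arrays and without the 4, and 1, Mmp8, at 24 h (1.05, adjusted p = 0.0085). None of 8 mural markers was called in either comparison with sham.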

How the data were processed

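RNA from 15 rat hearts was measured on 15 arrays. Affymetrix Expression Console is the program named, per the submitters' processing notes, and the deposited log2 values, 1 per transcript cluster, carry the name of RMA (background correction, quantile normalization, median polish). The log2 scale is inferred from that name and the range of the values (2.51 to 19.83), and was not tested. The fold differences given rest on it. Which annotation and genome build the authors used is not given in the sources. The series matrix values were identical. The series title and an extraction note name ischemia/reperfusion and mice, and the design text a mouse array; the titles and source names of the samples, which give SAP or sham surgery in rats, were followed. Symbols are from GEO's platform annotation (15049 of 23188 probe sets have 1).

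A linear model with 3 group means and 12 residual degrees of freedom was fitted with limma 3.58.1 (lmFit, eBayes) in R 4.3.3 to all probe sets, unfiltered, with Benjamini-Hochberg adjustment over all 23188, and genes were called at an adjusted p under 0.05. The fit was tested on simulated data. The number of arrays limits precision (median standard error 0.15 log2), and p-values measure the spread between these arrays. The labels name no batch.

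The collagen genes, classes, lists, atrium-rich arrays and alternatives were chosen with earlier results of these data known. Every array value is given for collagens called in any comparison and, per class, for the 3 with the highest mean and the 2 with the smallest p. Of each pathway list the called members are named, up to 4 per comparison. Serpinh1, Plod2, Postn, Fmod, Sparc, Nid2, Ddr2, Tgfb1, Acta2 and the markers given with values were named after their values were seen. Alternatives changed the centring, normalization, filter, variance model, weights, threshold, arrays, replicate block and atrial covariate.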

Additional observations from a re-analysis of the deposited data

Results flagged for a closer look

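In 60 sets of 5 arrays (20 collagen genes in 3 groups) Dixon's test found 5 in which 1 array stood far from the other 4, where chance gives about 1 in 20, or 3. Col8a1 in sham replicate 3 was 7.28 log2, with the next sham array at 5.84. At 12 h, Col4a4 in replicate 3 was 6.28 (next 5.61), Col18a1 in replicate 5 was 6.19 (next 5.66), Col5a3 in replicate 2 was 5.25 (next 4.98) and Col13a1 in replicate 2 was 3.64 (next 3.37). Sham replicate 3 and SAP 12 h replicate 3 are among the atrium-rich arrays. Col13a1 has a mean under the median of the acinar genes. The cause of these single values was not tested.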

How the results depend on the processing

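With 5 arrays a group the calls sit near the threshold. At 12 h, where 2 collagen genes were called, leaving out 1 array gave 1 to 2, the atrial covariate 5, the fit without the 4 atrium-rich arrays 4, a 2-fold minimum 1 and an adjusted p under 0.01 gave 0. At 24 h, again 2, leaving out 1 array gave 0 to 3, fitting only the groups compared gave 4, and repeated quantile normalization, eBayes with trend and robust settings, the atrial covariate and an adjusted p under 0.01 each gave 0. For 24 h against 12 h the count was 0 in every fit run. With the lowest 50% of probe sets left out, which removes the dim collagens, the median difference was -0.689 at 12 h and -0.665 at 24 h. Leaving out 1 array moved the median over the 20 genes between -0.154 and -0.0745 at 12 h, -0.200 and -0.0973 at 24 h and -0.0435 and 0.0388 between the times. Apart from the filter, which drops genes, and the thresholds, the cause of these moves was not tested. Except for the atrial covariate and the fit without the 4 atrium-rich arrays, the share of all probe sets called in these fits is not given here. A gain or loss of calls in collagens is therefore not told apart from one across the whole array.

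With the replicate block 3 genes were called at 12 h, 2 at 24 h and 0 between the times. The share of all probe sets called in that fit is likewise not given. Col15a1 was gained at both times (limma adjusted p = 0.0294 and 0.0256) and Col14a1 lost at 24 h (0.0504). The numbers did not pair the arrays: same-number correlations of deviations ran from -0.168 to 0.258, and an array correlated best with its own number in 5 of 30 cases.

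Values with no call turned sign as follows. For 24 h against 12 h the covariate and the fit without 4 arrays gave 0.24 and 0.30 for Col15a1, 0.23 and 0.17 for Col1a1, 0.27 and 0.25 for Col1a2, 0.65 and 0.67 for Col3a1, and 0.0847 and 0.11 for Col6a2. There the covariate gave 0.0473 for Col8a1, the fit without 4 arrays -0.0507 for Col5a1 and repeated quantile normalization 0.0372 for Col6a2. Col5a1 turned at 12 h with array weights (0.00545) and without the 4 arrays (0.17), and at 24 h with the covariate (-0.0235). With 1 array left out Col5a1 ran from -0.115 to 0.0325 at 12 h and -0.049 to 0.113 at 24 h, and Col8a1 from -0.395 to 0.0475 at 12 h. Between the times these ranges were -0.0425 to 0.563 for Col14a1, -0.291 to 0.0895 for Col15a1, -0.123 to 0.0895 for Col18a1, -0.434 to 0.0565 for Col1a2, -0.498 to 0.173 for Col3a1, -0.0155 to 0.145 for Col5a1 and -0.0825 to 0.0375 for Col6a2.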
